A study of Mus musculus with 6 samples.

Results

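Liver sinusoidal endothelial cells line the capillaries of the liver, and 10 genes that mark them were examined in liver RNA of 6 mice. The 10 genes are Stab1, Stab2, Lyve1, Clec4g, Fcgr2b, Oit3, Pecam1, Kdr, Cdh5 and Mrc1. They were taken by symbol from tables of 54532 genes, by a rule that uses no measured value. The list itself was chosen with earlier results of these data known. All 10 were found, each in 1 row, and all 10 had a mean of at least 1 RPKM (reads per kilobase of gene, scaled by library size) over the 6 libraries, so that all were among the 8773 genes tested. The mice were adult C57BL/6J males of 8 weeks. In 3 of them (paternal nicotine, F1-N) the father had received nicotine, and in the other 3 (paternal saline, F1-C) the father had received saline. The offspring themselves have no treatment in the labels. How many fathers or litters stand behind them is not stated in the labels, so a p-value covers the spread among 6 animals and no more. By its title the series concerns fibrosis of the liver after paternal nicotine, and the comparison here asks whether transcripts of the sinusoidal lining differed between the groups.

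Sinusoidal endothelium differs from most capillary endothelium in having open pores, no continuous basement membrane and a very high rate of endocytosis. Its scavenger receptors clear waste macromolecules, oxidized lipoproteins and small immune complexes from portal blood. In chronic liver injury the lining is known to lose its pores and gain features of continuous capillaries, a change called capillarization that accompanies fibrosis. During acute inflammation the same cells display adhesion molecules that hold leukocytes.

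None of the 10 genes passed the test in paternal nicotine livers, at a Benjamini-Hochberg adjusted p of 0.05 in limma over all tested genes. Of all tested genes 9.28% passed. Fold changes are given as paternal nicotine minus paternal saline on the log2(RPKM + 1) scale, so that the change of a low gene is understated. They ranged from -0.12 for Oit3 to 0.60 for Fcgr2b, 5 positive and 5 negative. Their median was 0.02, beside -0.02 over all tested genes. Lyve1, the hyaluronan receptor of sinusoidal and lymphatic endothelium, stood nearest to the threshold, at 6.96 ± 0.818 RPKM in paternal nicotine and 4.84 ± 0.696 RPKM in paternal saline (SD, n = 3 each). At an unadjusted p of 0.05, Lyve1 was the 1 member of the 10 that passed in limma, and 1 of 10 did so in limma voom on the reads, while 26.3% of all tested genes were below that value in limma. In limma voom 0 of the 10 passed after adjustment, beside 8.59% of all genes. Bulk RNA cannot tell fewer cells of a type from less RNA per cell.

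**Figure D1:**
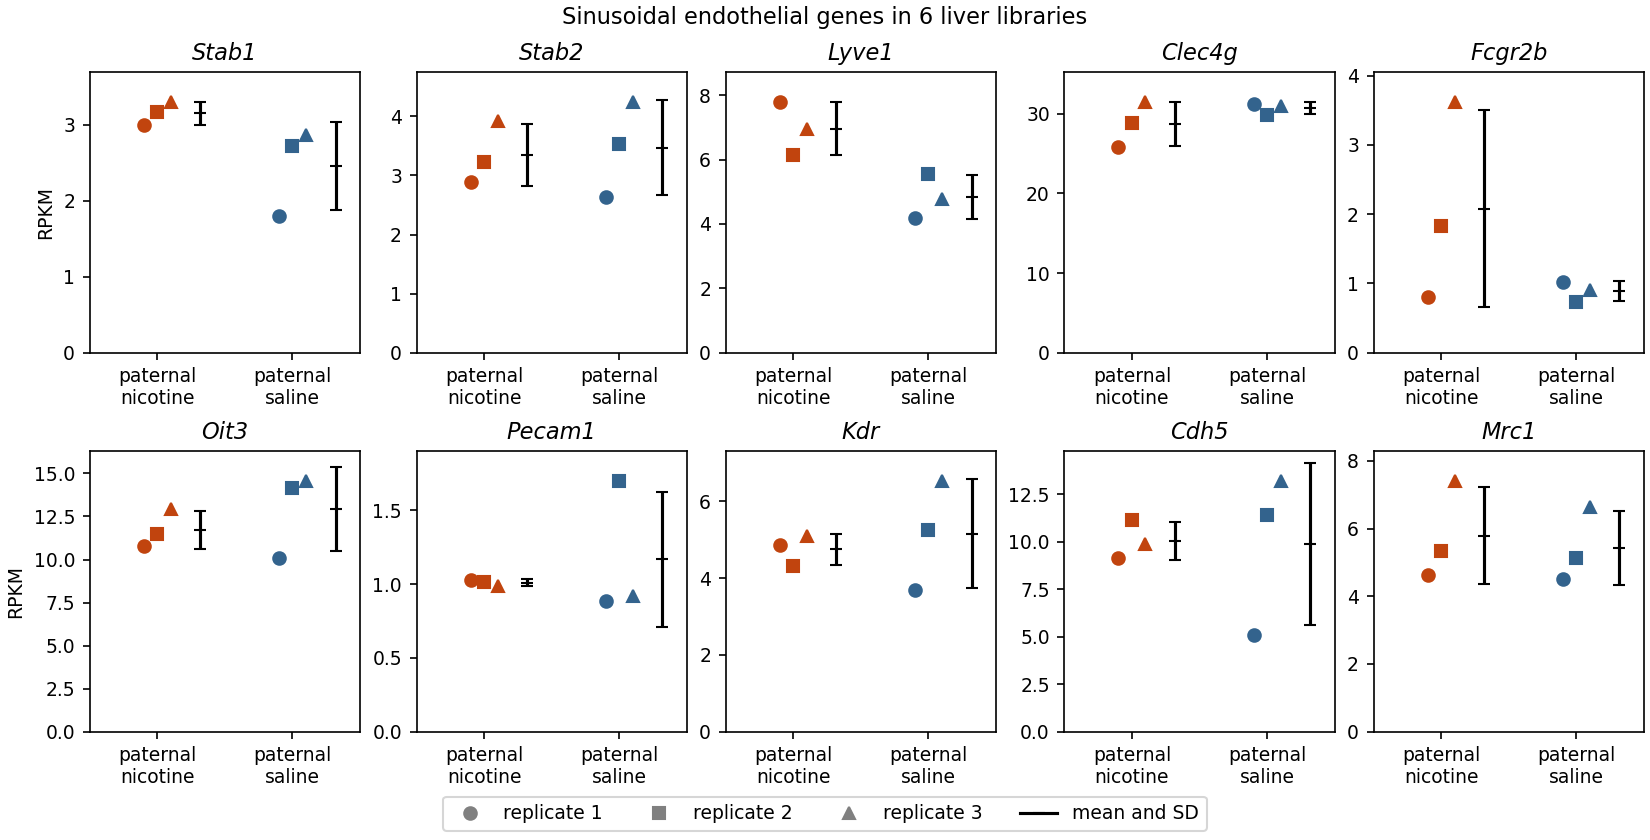
RPKM of the 10 sinusoidal endothelial genes in each library (y axis, linear, from 0), with paternal nicotine left of paternal saline, 1 marker shape per replicate number and the mean with its SD in black (n = 3 per group). The groups are apart for Stab1 and Lyve1 and overlap for the other 8 genes, and Cdh5 has its lowest point, 5.07 RPKM, in paternal saline replicate 1.

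Each library rested on 61837267 to 70089315 reads, and the members were read deeply, from 552 reads of Fcgr2b in paternal saline replicate 2 to 10263 reads of Clec4g in paternal nicotine replicate 3. Markers of other cell types moved between libraries. Macrophage markers, 16 genes, summed to 380 to 1139 RPKM in paternal nicotine and 392 to 760 RPKM in paternal saline, highest in replicate 3 of each group. Pancreatic acinar markers summed to 3935 RPKM in paternal nicotine replicate 2 and to at most 5.33 RPKM in the other 5 libraries. Without that library 0 of the 10 members passed, beside only 2.07% of all tested genes. The members' median log2 fold change was then 0.01. Hepatocyte markers, 8 genes led by the albumin gene, summed to 16381 to 17055 RPKM in paternal nicotine and 28501 to 35397 RPKM in paternal saline. Alb itself fell (log2 fold change -0.998, limma adjusted p = 0.0161), a call lost in 4 of 15 alternatives, with -0.19 after quantile normalization.

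The promoters of 3 members are shown because Stab2 and Kdr moved together over the 6 libraries, with a Pearson correlation of 0.87, and Clec4g with neither. Its correlation was 0.43 with Stab2 and 0.08 with Kdr (descriptions over 6 libraries that share their depth and cell mixture with all genes). Each run holds 250 bases before and 50 bases after the annotated start, 5′ to 3′ on the gene's own strand, from RefSeq on GRCm38.p6. Capitals mark CGGAAG or AGGAAG on either strand, longer forms of the GGAA core bound by ETS factors, which are known regulators of endothelial genes. The shorter GGAA was not counted, and it also occurs outside the capitals, in the Kdr window among others. Overlapping matches run together.
Stab2, chr10:87007893-87008192, minus strand: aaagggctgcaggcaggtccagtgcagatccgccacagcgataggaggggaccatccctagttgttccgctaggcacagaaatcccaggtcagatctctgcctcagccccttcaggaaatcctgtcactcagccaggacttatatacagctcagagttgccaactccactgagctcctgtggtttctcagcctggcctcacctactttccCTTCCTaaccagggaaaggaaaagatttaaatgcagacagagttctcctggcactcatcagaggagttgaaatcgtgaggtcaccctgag
Kdr, chr5:75978406-75978705, minus strand: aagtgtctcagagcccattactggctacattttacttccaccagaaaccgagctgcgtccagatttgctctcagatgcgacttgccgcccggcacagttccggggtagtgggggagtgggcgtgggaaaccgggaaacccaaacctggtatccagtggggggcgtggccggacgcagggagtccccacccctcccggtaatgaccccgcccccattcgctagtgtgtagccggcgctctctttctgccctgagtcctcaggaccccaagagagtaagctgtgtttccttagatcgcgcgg
Clec4g, chr8:3720602-3720901, minus strand: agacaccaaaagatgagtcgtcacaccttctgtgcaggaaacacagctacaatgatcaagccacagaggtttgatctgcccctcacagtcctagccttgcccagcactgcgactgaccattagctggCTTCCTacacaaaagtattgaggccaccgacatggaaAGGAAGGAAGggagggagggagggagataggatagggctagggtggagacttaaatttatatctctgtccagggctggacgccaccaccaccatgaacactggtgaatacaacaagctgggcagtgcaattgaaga
The Stab2 window held 1 match to these longer forms, the Clec4g window 3 and the Kdr window 0. Mrc1, whose window is not shown, held 3 and had a higher correlation with Stab2 than Kdr had, 0.90. The contrast between the windows shown therefore depends on the choice of pair. Promoters of 6 members were matched by symbol, and those of Lyve1, Oit3, Pecam1 and Cdh5 were not. Of the 6, 4 held a longer form (Stab1, Stab2, Clec4g and Mrc1), against 46.5% of 32851 promoters. The GATA letters TGATAA or AGATAA, searched on both strands for the sinusoidal factor GATA4, were in 0 of the 6 windows and in 18.6% of all promoters. These matches are letters in a window and not binding sites.

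Among the scavenger receptors, Stab1 and Stab2 encode stabilin-1 and stabilin-2, large related receptors for hyaluronan, oxidized lipoproteins and other waste. Stab1 (ENSMUSG00000042286, chromosome 14, 31139013 to 31168641 on GRCm38) was at 2.996, 3.17 and 3.30 RPKM in paternal nicotine and at 1.79, 2.73 and 2.86 RPKM in paternal saline. Each paternal nicotine library was above each paternal saline library, and paternal saline replicate 1 was the lowest of all. The log2 fold change was 0.28 (SE 0.14, 95% interval -0.07 to 0.62, limma adjusted p = 0.284), and it was 0.13 without paternal saline replicate 1. Exons of Stab1 share 112 bases with Nt5dc2 on the opposite strand, a gene of 1.74 RPKM on average, and the labels do not say whether reads kept their strand.

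Stab2 (ENSMUSG00000035459, chromosome 10, 86841198 to 87008025) was at 2.89, 3.24 and 3.93 RPKM in paternal nicotine and at 2.64, 3.53 and 4.24 RPKM in paternal saline. The groups overlapped over nearly their whole range. Its log2 fold change was -0.03 (SE 0.16, 95% interval -0.43 to 0.37).

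Lyve1 (ENSMUSG00000030787, chromosome 7, 110850607 to 110863239) was at 7.78, 6.15 and 6.95 RPKM in paternal nicotine and at 4.17, 5.56 and 4.78 RPKM in paternal saline. The groups did not overlap, with 6.15 RPKM as the lowest paternal nicotine value and 5.56 RPKM as the highest paternal saline value. Paternal nicotine exceeded paternal saline by 0.45 on the log2 scale (SE 0.13, 95% interval 0.14 to 0.76, limma adjusted p = 0.0872), higher in 3 of 3 paternal nicotine libraries than in any paternal saline library. Its adjusted p was between 0.0648 and 0.211 in the alternatives, and it stayed positive in each of them.

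Lyve1 and Stab1 were the 2 members whose groups did not overlap, both higher in paternal nicotine. Of all tested genes, 14.4% had non-overlapping groups with paternal nicotine higher and 19.2% with paternal nicotine lower, 33.6% in either direction. No member was apart with paternal nicotine lower.

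Mrc1 (ENSMUSG00000026712, chromosome 2, 14229392 to 14332057) encodes the mannose receptor, by which sinusoidal endothelium takes up collagen fragments and glycoproteins, and which macrophages also carry. It was at 4.64, 5.32 and 7.40 RPKM in paternal nicotine and at 4.50, 5.12 and 6.63 RPKM in paternal saline. The values of the groups interleaved, and replicate 3 was the highest of each group, as it was for the macrophage markers. Their part in Mrc1 was not tested. The difference was 0.07 on the log2 scale (SE 0.19, 95% interval -0.40 to 0.55).

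Clec4g and Fcgr2b encode the surface receptors of the lining that bind glycans and immune complexes. Clec4g (ENSMUSG00000074491, chromosome 8, 3707064 to 3720651) encodes the lectin LSECtin. It was at 25.9, 28.9 and 31.4 RPKM in paternal nicotine and at 31.3, 29.8 and 31.0 RPKM in paternal saline. It was the highest member per length in every library and had the narrowest spread in paternal saline, a coefficient of variation of 2.46%. Its log2 fold change was -0.10 (SE 0.09, 95% interval -0.32 to 0.13).

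Fcgr2b (ENSMUSG00000026656, chromosome 1, 170958617 to 170976547) encodes the inhibitory Fc gamma receptor, carried by sinusoidal endothelium, B cells and macrophages. It was at 0.798, 1.83 and 3.61 RPKM in paternal nicotine and at 1.03, 0.738 and 0.911 RPKM in paternal saline. Replicates 2 and 3 of paternal nicotine were above all paternal saline libraries, and replicate 1 was within their range. For Fcgr2b the log2 fold change was 0.60 (SE 0.34, 95% interval -0.23 to 1.43, limma adjusted p = 0.326), the widest interval of the members. It was 0.26 without paternal nicotine replicate 3 and 0.94 without paternal nicotine replicate 1 (limma adjusted p = 0.102), and 1.00 in limma voom on the reads (adjusted p = 0.359).

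Other Fc receptor genes of myeloid cells were likewise highest in paternal nicotine replicate 3. The activating receptor gene Fcgr3 was at 2.30, 2.52 and 7.92 RPKM in paternal nicotine and at 2.11, 2.26 and 4.11 RPKM in paternal saline. Fcgr4, another activating receptor gene, was at 5.05, 10.2 and 23.4 RPKM in paternal nicotine and at 5.39, 4.72 and 11.02 RPKM in paternal saline. Of the 6 genes of this receptor group, 0 passed in limma or in limma voom, and 0 were below an unadjusted p of 0.05. Macrophage markers summed to 380, 646 and 1139 RPKM in paternal nicotine replicates 1 to 3. The 7 B cell markers summed to 2.42 to 4.63 RPKM in paternal nicotine and 2.84 to 3.51 RPKM in paternal saline, and their part in Fcgr2b, like that of macrophages, was not tested. Transcripts of Fcgr2b and Fcgr3 align over 512 bases at 96.3% identity, and the labels do not say how reads with several matches were treated, so the division of reads between them is uncertain.

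Oit3 (ENSMUSG00000009654, chromosome 10, 59422958 to 59441778) encodes a secreted zona pellucida domain protein known in liver from sinusoidal endothelium. It was at 10.8, 11.5 and 12.9 RPKM in paternal nicotine and at 10.1, 14.2 and 14.5 RPKM in paternal saline. The paternal nicotine libraries lay within the paternal saline range. Its difference was -0.12 on the log2 scale (SE 0.16, 95% interval -0.50 to 0.26).

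The remaining 3 members are general endothelial genes of cell junctions and growth factor signalling. Cdh5 (ENSMUSG00000031871, chromosome 8, 104101625 to 104144511) encodes VE-cadherin, the adhesive protein of endothelial junctions. It was at 9.14, 11.1 and 9.87 RPKM in paternal nicotine and at 5.07, 11.4 and 13.2 RPKM in paternal saline. The paternal saline libraries lay on both sides of the paternal nicotine libraries. For Cdh5 the log2 fold change was 0.11 (SE 0.33, 95% interval -0.70 to 0.91), and it turned to -0.27 (SE 0.12) without paternal saline replicate 1.

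Pecam1 (ENSMUSG00000020717, chromosome 11, 106654217 to 106750628) encodes CD31, an adhesion protein that leukocytes bind as they cross the vessel wall. It was at 1.03, 1.01 and 0.985 RPKM in paternal nicotine and at 0.886, 1.70 and 0.922 RPKM in paternal saline. A single library, paternal saline replicate 2, was above 1.03 RPKM. Its difference was -0.09 on the log2 scale (SE 0.16, 95% interval -0.47 to 0.29), and 0.08 without that library. Pecam1 has 8 annotated transcripts whose exons sum to 19783 bases, against 6228 bases counted once, so its level per length depends on the transcripts annotated: its mean over the 6 libraries was 1.09 RPKM on the summed length and 3.46 RPKM with bases counted once.

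Kdr (ENSMUSG00000062960, chromosome 5, 75932827 to 75978458) encodes VEGFR2, the main receptor through which the growth factor VEGF-A acts on endothelium. It was at 4.85, 4.31 and 5.10 RPKM in paternal nicotine and at 3.68, 5.26 and 6.52 RPKM in paternal saline. The paternal nicotine libraries lay within the paternal saline range. The log2 fold change was -0.07 (SE 0.18, 95% interval -0.52 to 0.38).

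Ordered by mean RPKM over the 6 libraries, Clec4g was followed by Oit3 at 12.3 RPKM, Cdh5 at 9.97 RPKM, Lyve1 at 5.90 RPKM and Mrc1 at 5.60 RPKM. Then came Kdr at 4.95 RPKM, Stab2 at 3.41 RPKM, Stab1 at 2.81 RPKM, Fcgr2b at 1.49 RPKM and Pecam1 at 1.09 RPKM. Neighbours in this order after Clec4g overlapped in their library values. With exon bases counted once in the length, the first 4 kept their places and the other 6 did not. After them came Kdr, then Stab1, Mrc1, Stab2, Pecam1 and Fcgr2b.

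Paternal saline replicate 1 was the lowest of the 6 libraries for 8 of the 10, all but Clec4g and Fcgr2b. Among all tested genes it was the lowest for 24.7%. The members were not alone in this: it was the lowest for 10 of 17 tested pan-endothelial genes. It was also the lowest for 7 of 9 activation genes, all higher in paternal nicotine without overlap. For these only a paternal saline library could be the lowest, so the share over all tested genes is no like measure. Paternal saline replicate 1 was the lowest for 8 of 18 further sinusoidal endothelial genes, 4 of 14 macrophage markers and 2 of 8 hepatocyte markers. In that library the deviation from the gene's 6-library mean on the log2(RPKM + 1) scale was -0.81 for Cdh5, -0.43 for Stab1 and -0.39 for Lyve1. The 10 members summed to 70.8, 76.5 and 85.5 RPKM in paternal nicotine and to 65.1, 80.02 and 85.6 RPKM in paternal saline. Without paternal saline replicate 1 the members had 3 positive and 7 negative fold changes with a median of -0.13, beside -0.04 over all tested genes, and again 0 of 10 passed, beside 2.9% of all genes. No member passed without any other library either, where the share of all genes that passed was 3.12%, 2.07% and 7.5% without paternal nicotine replicates 1, 2 and 3, and 7.15% and 4.17% without paternal saline replicates 2 and 3.

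**Figure D2:**
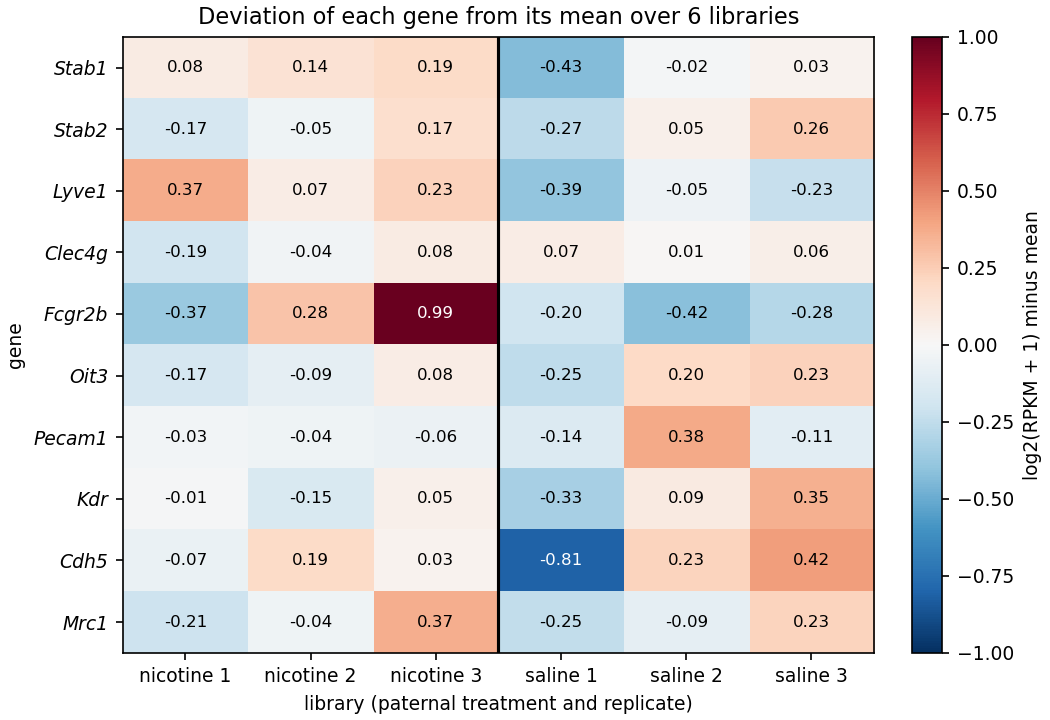
Deviation of log2(RPKM + 1) of each member from its mean over the 6 libraries (colour and printed value), with the paternal nicotine libraries left of the line and the paternal saline libraries right of it. Paternal saline replicate 1 is low for 8 genes, down to -0.81 for Cdh5, and Fcgr2b reaches 0.99 in paternal nicotine replicate 3.

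Over the 6 libraries Stab2 moved with Oit3 (Pearson correlation 0.92), Mrc1 (0.90) and Kdr (0.87), and Stab1 most with Cdh5 (0.81). The correlation of Lyve1 with Stab2 was 0.05. Among 8763 tested genes outside the members, those most like Stab2 over the 6 libraries were Igfbp7, Parp14 and Tspan7, with correlations of 0.98 each. Those most like Clec4g were Atpif1, Gpatch8 and Ing5, with correlations of 0.98 each. These are descriptions over 6 libraries chosen from many genes.

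Further genes of the endothelium were read from lists. Of 18 tested sinusoidal endothelial genes beyond the members, of 23 listed, 0 passed in limma or in limma voom and 2 were below an unadjusted p of 0.05, with a median log2 fold change of -0.04. Plxnc1, a semaphorin receptor gene, had the lowest p, at 3.84 ± 0.243 RPKM in paternal nicotine and 2.69 ± 0.531 RPKM in paternal saline (limma adjusted p = 0.115). Ehd3, which acts in endosome recycling, was at 10.965 ± 1.99 RPKM in paternal nicotine and 15.4 ± 2.77 RPKM in paternal saline (limma adjusted p = 0.173). Gata4, the transcription factor gene that maintains sinusoidal identity, was at 2.55 ± 0.394 RPKM in paternal nicotine and 3.26 ± 0.264 RPKM in paternal saline, without overlap (limma adjusted p = 0.204). The protease gene Lgmn was at 40.6 ± 13.3 RPKM in paternal nicotine and 24.9 ± 6.89 RPKM in paternal saline (limma adjusted p = 0.206).

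Of 17 tested pan-endothelial genes, of 26 listed, 0 passed in limma or in limma voom, 3 were below an unadjusted p of 0.05, 9 had a positive and 8 a negative fold change, and the median was 0.07. Nos3, which encodes endothelial nitric oxide synthase, was at 2.31, 1.66 and 1.40 RPKM in paternal nicotine and at 0.533, 1.14 and 0.913 RPKM in paternal saline. The groups did not overlap, and the log2 fold change was 0.58 (SE 0.18, limma adjusted p = 0.101). The sphingosine phosphate receptor gene S1pr1 was at 28.6 ± 0.200 RPKM in paternal nicotine and 25.5 ± 0.0291 RPKM in paternal saline, a log2 fold change of 0.16 (limma adjusted p = 0.181). Cldn5, a tight junction gene, was at 12.0 ± 1.95 RPKM in paternal nicotine and 15.8 ± 2.03 RPKM in paternal saline (limma adjusted p = 0.178). The orphan receptor gene Tie1 was at 2.97 ± 0.473 RPKM in paternal nicotine and 4.03 ± 0.761 RPKM in paternal saline (limma adjusted p = 0.220).

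Of the growth factors and receptors of the VEGF, angiopoietin and BMP9 pathways, 11 of 17 were tested, and 0 passed in limma or in limma voom, with 0 below an unadjusted p of 0.05. Vegfa, the ligand of Kdr, was at 2.83 ± 0.361 RPKM in paternal nicotine and 3.31 ± 0.245 RPKM in paternal saline. Of 8 tested zonation landmarks, of 13 listed, 0 passed in limma or in limma voom, and 1, Thbd, was below an unadjusted p of 0.05. Rspo3, which like Wnt2 comes from pericentral endothelium and sustains zonation of hepatocytes, was at 1.59 ± 0.150 RPKM in paternal nicotine and 1.34 ± 0.182 RPKM in paternal saline. Wnt2, which pericentral endothelium secretes, was at 3.20 ± 0.286 RPKM in paternal nicotine and 3.59 ± 0.566 RPKM in paternal saline, and Ntn4 at 6.99 ± 1.31 RPKM in paternal nicotine and 8.30 ± 1.40 RPKM in paternal saline.

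Genes of capillarization and of continuous endothelium had 7 tested of 15 listed. None of the 7 passed in limma or in limma voom, 1, Esm1, was below an unadjusted p of 0.05, 6 had a positive fold change, and the median was 0.17. Paternal saline replicate 1 was the lowest library for 5 of the 7. Without that library the median was 0.04, beside -0.04 over all tested genes, again with 6 positive fold changes. Esm1, which encodes the proteoglycan endocan, was at 1.17, 1.82 and 2.81 RPKM in paternal nicotine and at 0.956, 0.741 and 0.980 RPKM in paternal saline. The groups did not overlap, and the log2 fold change was 0.60 (SE 0.21, limma adjusted p = 0.141). The basement membrane gene Col4a1 was at 3.04 ± 0.325 RPKM in paternal nicotine and 2.27 ± 0.499 RPKM in paternal saline (limma adjusted p = 0.225). Plvap, whose product forms the diaphragms of endothelial pores, was at 58.9 ± 7.38 RPKM in paternal nicotine and 50.2 ± 8.85 RPKM in paternal saline (limma adjusted p = 0.420). Cd34 and Vwf, markers of continuous endothelium, were below the tested range.

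**Figure D3:**
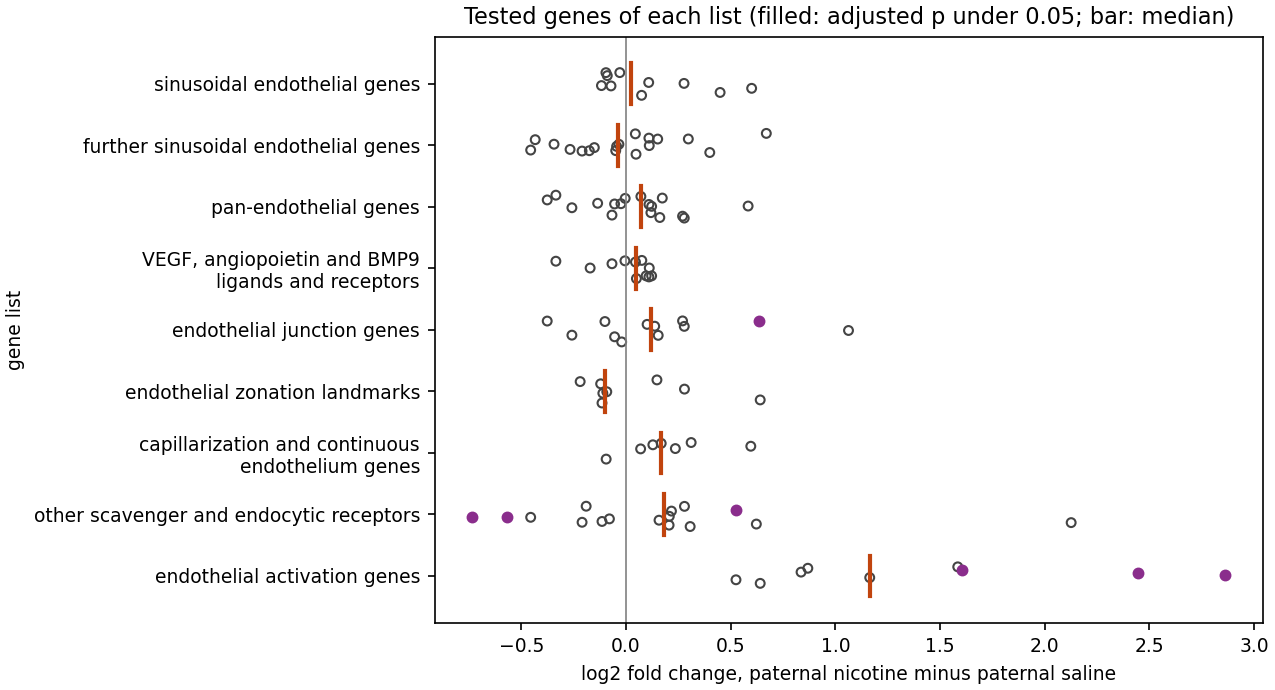
Log2 fold change on the log2(RPKM + 1) scale (x axis, paternal nicotine minus paternal saline) of each tested gene in 9 endothelial lists (rows), filled where the limma adjusted p was under 0.05, with a bar at each list's median. The medians of the lists lie between -0.10 and 0.18 except for the activation genes, at 1.16. Some genes, such as Cldn5 and Thbd, are in more than 1 list, so the rows are not separate observations.

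Of 12 tested junction genes, of 16 listed, 1 rose and 0 fell, a share near the 9.28% of all tested genes that passed in either direction. Jam2, an adhesion molecule of endothelial junctions, was at 2.88, 2.82 and 2.34 RPKM in paternal nicotine and at 1.07, 1.60 and 1.46 RPKM in paternal saline. The groups did not overlap, and the log2 fold change was 0.63 (SE 0.12, limma adjusted p = 0.0295). The call was lost without paternal nicotine replicate 1 or 2 and without paternal saline replicate 1 or 3. It was also lost with no filter on low values and with replicate number as a block. In these the adjusted p was between 0.0759 and 0.110, and the fold change stayed at 0.54 or more. In all, Jam2 passed in 8 of 14 alternatives.

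Of 16 tested other scavenger and endocytic receptor genes, of 22 listed, 1 rose and 2 fell, where 3.89% of all tested genes rose and 5.39% fell. Lrp1, a large receptor for lipoprotein remnants and proteases that hepatocytes also carry, was at 61.3, 61.3 and 54.6 RPKM in paternal nicotine and at 38.6, 43.0 and 40.4 RPKM in paternal saline (log2 fold change 0.53, SE 0.09, limma adjusted p = 0.0196). Colec12, a scavenger receptor of endothelium, fell to 7.61, 6.76 and 7.20 RPKM in paternal nicotine, against 13.9, 9.71 and 14.8 RPKM in paternal saline. Its log2 fold change was -0.73 (SE 0.16, limma adjusted p = 0.0458), and the call was lost in 10 of 15 alternatives, among them the omission of any 1 library other than paternal saline replicate 2, at adjusted p of 0.0979 to 0.152. Asgr2, a subunit of the asialoglycoprotein receptor of hepatocytes, fell to 36.1 ± 2.19 RPKM in paternal nicotine, against 53.9 ± 2.31 RPKM in paternal saline (limma adjusted p = 0.0144). The calls of Lrp1 and Asgr2 were also lost without paternal nicotine replicate 1 or 2 and without paternal saline replicate 1 or 3, at adjusted p of at most 0.0847. That of Lrp1 was lost as well with no filter on low values, at 0.0597, and with replicate number as a block. In all, Lrp1 passed in 9 and Asgr2 in 11 of 15 alternatives.

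Of the 18 listed endothelial activation genes, 9 were tested, and 3 of the 9 rose and 0 fell, where 3.89% of all tested genes rose. All 9 had a positive fold change and groups that did not overlap, beside 14.4% of all tested genes. The list was drawn up with earlier results of these livers known and its count is not independent evidence. With median ratio rescaling 5 of the 9 rose. The difference between this list and the 10 members was not tested. These genes are not restricted to endothelium, and hepatocytes and leukocytes are known to express several of them.

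The 3 were Icam1, Il1r1 and Socs3. Icam1, the adhesion molecule that binds leukocyte integrins, was at 13.6, 16.8 and 18.9 RPKM in paternal nicotine and at 3.71, 5.76 and 4.75 RPKM in paternal saline. All paternal nicotine libraries were above 13 RPKM and all paternal saline libraries below 6 RPKM. Its log2 fold change was 1.60 (SE 0.18, limma adjusted p = 0.00755), and it passed in all 15 alternatives.

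Socs3, a feedback inhibitor of cytokine signalling, was at 26.7, 32.3 and 24.6 RPKM in paternal nicotine and at 5.09, 3.48 and 1.24 RPKM in paternal saline (log2 fold change 2.86, SE 0.37, limma adjusted p = 0.0121). The interleukin-1 receptor gene Il1r1 was at 19.6, 16.9 and 5.80 RPKM in paternal nicotine and at 1.45, 1.67 and 1.38 RPKM in paternal saline. Replicate 3 was well below the other paternal nicotine libraries but above all paternal saline libraries (log2 fold change 2.45, SE 0.42, limma adjusted p = 0.0242). Without paternal nicotine replicate 2, 1 of the 9 genes passed: the call of Socs3 was lost at an adjusted p of 0.0576 and that of Il1r1 at 0.0889. Leaving out any 1 library other than paternal nicotine replicate 3 ended the call of Il1r1, as did no filter on low values, at 0.0709. Taking replicate number as a block ended the call too. In all, Il1r1 passed in 8 of 15 alternatives.

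Other activation genes did not pass. Vcam1, the adhesion molecule for lymphocytes and monocytes, was at 2.08, 3.19 and 4.54 RPKM in paternal nicotine and at 0.843, 1.43 and 1.81 RPKM in paternal saline (limma adjusted p = 0.107). Thbd, which encodes the anticoagulant thrombomodulin, was at 3.35 ± 0.379 RPKM in paternal nicotine and 1.81 ± 0.457 RPKM in paternal saline (limma adjusted p = 0.0518), and it passed in 1 of 14 alternatives, median ratio rescaling, at 0.0425. The chemokine gene Ccl2 was at 3.29 ± 1.93 RPKM in paternal nicotine and 0.324 ± 0.132 RPKM in paternal saline (limma adjusted p = 0.0514), and it passed in 5 of 14 alternatives, with the lowest adjusted p, 0.0177, without paternal nicotine replicate 1. Cxcl10, a chemokine gene induced by interferon, was at 2.41 ± 1.30 RPKM in paternal nicotine and 0.480 ± 0.379 RPKM in paternal saline (limma adjusted p = 0.0789). The tumour necrosis factor receptor gene Tnfrsf1a was at 40.0 ± 6.13 RPKM in paternal nicotine and 22.02 ± 7.50 RPKM in paternal saline (limma adjusted p = 0.0827). The selectin genes Sele and Selp were below the tested range. Selp was at 0.650, 0.676 and 0.802 RPKM in paternal nicotine and at 0.471, 0.320 and 0.320 RPKM in paternal saline, and its adjusted p with no filter on low values was 0.144 in limma.

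**Figure D4:**
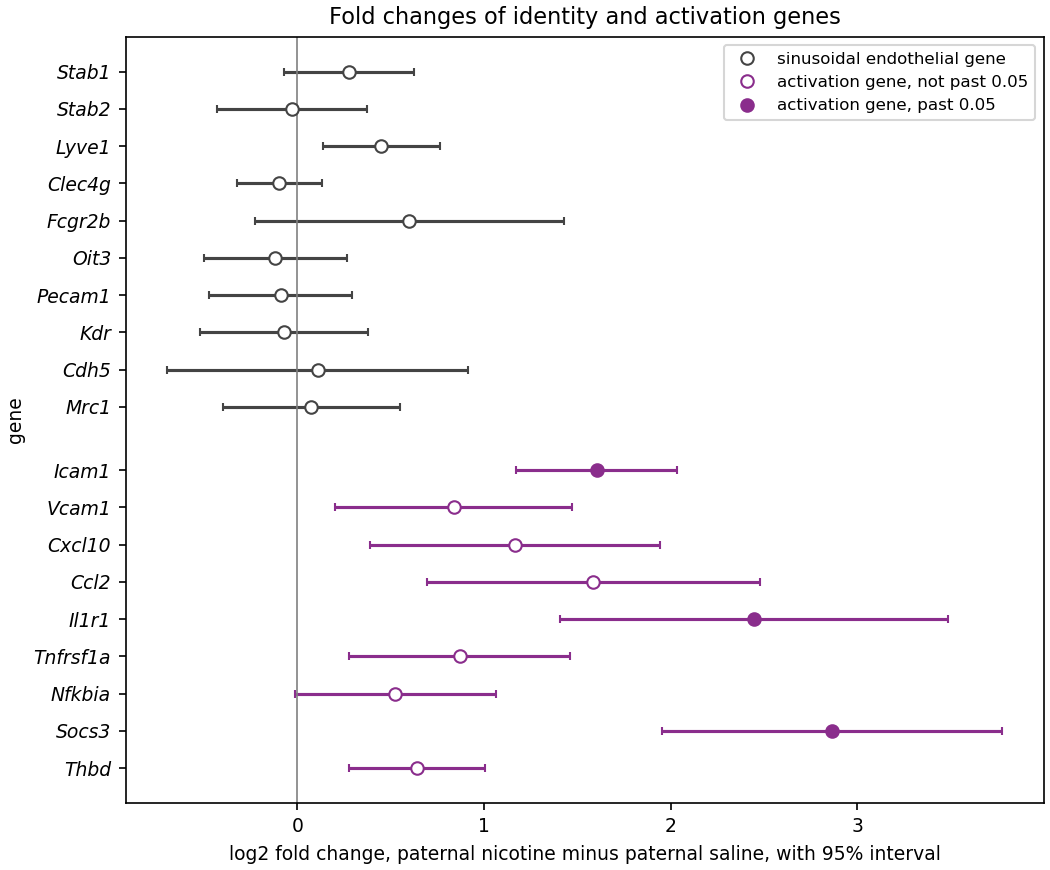
Log2 fold change on the log2(RPKM + 1) scale (x axis, paternal nicotine minus paternal saline) with its 95% interval from limma for the 10 members (grey) and the 9 tested activation genes (purple), filled where the adjusted p was under 0.05. All intervals of the members except that of Lyve1 include 0, while Icam1, Il1r1 and Socs3 lie between 1.60 and 2.86.

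The 12 neutrophil markers were higher in sum in paternal nicotine. They summed to 26.8 to 86.8 RPKM in paternal nicotine and to 6.02 to 7.19 RPKM in paternal saline. The defining marker Ly6g, not tested, was at 0.139, 0.694 and 0.235 RPKM in paternal nicotine and at 0 in all paternal saline libraries. The groups did not overlap for 6 of the 12 markers, all higher in paternal nicotine, and overlapped for the other 6. Of all tested genes 14.4% were apart with paternal nicotine higher. That share is no like measure here, because 9 of the 12 markers were below the tested range. Of 3 tested, S100a8, a calcium-binding protein gene of neutrophils, rose, at 30.5 ± 10.5 RPKM in paternal nicotine and 2.49 ± 0.668 RPKM in paternal saline. Of all tested genes 3.89% rose. The part of neutrophils in the activation genes was not tested. Lymphatic endothelial markers, 6 genes, summed to 8.91 to 12.2 RPKM in paternal nicotine and 7.97 to 10.8 RPKM in paternal saline, and stellate cell markers, 11 genes, to 55.3 to 71.1 RPKM in paternal nicotine and 52.7 to 63.4 RPKM in paternal saline. The largest part of the lymphatic sum was Flt4, at 4.35 to 7.17 RPKM over the 6 libraries. Flt4 is also among the further sinusoidal endothelial genes, so the sum says little about lymphatic endothelium.

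The width of the members' intervals came from the spread within both groups of 3 animals, moderated by limma over all tested genes. In 9 of the 10, the 95% interval lay within 1 log2 unit of 0 on the log2(RPKM + 1) scale, the exception being Fcgr2b.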

How the data were processed

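Liver RNA was isolated with Trizol and made into libraries with a TruSeq DNA kit, per the labels' protocols. The authors deposited 1 table of RPKM values per library. CASAVA, TopHat and the build mm8 are named in the submitters' processing notes without versions, while no counting tool or annotation is named there. Symbols and coordinates are from GENCODE M21 (GRCm38), which held 99.93% of the gene identifiers.

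Values under 1e-06 RPKM, placeholders for genes without a read, were set to 0. The deposited RPKM values rest on the summed exon length of all transcripts of a gene, which matched 98.9% of genes without a read within a relative 1e-06. With these lengths, and others found for 1200 genes, all 25531 genes with a read gave whole reads within 0.01. A level therefore depends on how many transcripts a gene is annotated with.

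Tests were limma 3.58.1 in R 4.3.3, moderated with trend and robust options, for 8773 genes averaging 1 RPKM or more, on log2(RPKM + 1), with a threshold of 0.05 on p-values adjusted by Benjamini-Hochberg. The fit was tested on simulated data. Alternatives were other scalings, pseudocounts of 0.1 and 0.01, other filters, no moderation by trend, a replicate block, limma voom on the reads, a threshold of 0.1 and leaving out each library. Transcripts were aligned with blastn 2.17.0. A gene of the activation list is not reported here. The members and lists were chosen with earlier results of these data known. Named are the members, list genes that passed or, where none passed, up to 4 of lowest p, and the 3 genes most like Stab2 and Clec4g. Others (among them Vcam1, Selp, Sele, Cd34, Vwf, Fcgr3, Ly6g and unpassed genes of lists with calls) were chosen after their values were seen.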

Additional observations from a re-analysis of the deposited data

How the results depend on the processing

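The count of 0 members past the threshold held in 15 of 16 alternatives: other scalings, filters and pseudocounts, limma without trend, limma voom, the replicate block and each left-out library. At an adjusted p of 0.1 there was 1, Lyve1. Over all genes, 814 passed, against 367 with no filter on low values, 383 with the replicate block and 1411 at an adjusted p of 0.1. Leaving out 1 library each gave 182 to 658 genes, 182 without paternal nicotine replicate 2. The cause was not tested. Over all tested genes, deviations of same-numbered libraries from their group means correlated by 0.0071 to 0.056. The labels do not say whether the numbers pair the libraries, and these correlations cannot exclude a pairing that acts on fewer genes. The block left 0 members called and 1 further sinusoidal gene. With the block Vcam1 was at an adjusted p of 0.0345, Jam2 at 0.0771, Lrp1 and Colec12 at 0.0641 and Il1r1 at 0.0519. Rescaling moved the median of all genes by less than 0.1 (log2).

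Fold changes near 0 changed sign when a library was left out. Stab2 was at 0.05 without paternal nicotine replicate 1 and 0.0925 without paternal saline replicate 3 (range -0.17 to 0.09), Kdr at 0.0862 without paternal saline replicate 3 (range -0.26 to 0.09) and Pecam1 at 0.0779 without paternal saline replicate 2 (range -0.18 to 0.08). Cdh5 was at -0.27 without paternal saline replicate 1 (range -0.27 to 0.34), and Mrc1 at -0.03 without that library and -0.0898 without paternal nicotine replicate 3 (range -0.09 to 0.21).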
